A study of Homo sapiens with 10 samples.

Results

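Long intergenic noncoding RNAs (lincRNAs) with a LINC number that were expressed in a human embryonic stem cell line were examined. A gene was taken if its identifier carried the GENCODE 44 biotype lncRNA, its symbol was LINC followed by digits, and its mean over the 10 libraries was at least 1 CPM (the count scaled to a common library total). Of 2019 such LINC genes among the 55841 identifiers of the count table, 605 had no count in any library and 103 reached this level. The 103 genes were thus chosen by their mean level, which is given below as a description only. All 103 passed the filter on low counts and entered the test.

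LincRNAs are transcribed from their own promoters outside protein-coding genes and are usually spliced and polyadenylated like mRNAs. They are not translated into known proteins, tend to be less abundant and more cell-type restricted than mRNAs, and most have no known function. Some act on neighbouring genes in cis, others act elsewhere in the nucleus or the cytoplasm. In pluripotent cells a few are well known as stem cell transcripts, among them LINC-ROR, LINC00458 and LINC00678.

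RNA was sequenced in bulk from the line that the labels name HES9, grown on Matrigel in mTeSR1 medium. The general population was unsorted, and the HHH fraction was sorted for the highest levels of 3 surface antigens, EPCAM, GCTM-2 and CD9. Of the 5 libraries per population, 2 belonged to batch 1 and 3 to batch 2, so that each batch held both populations. All libraries came from 1 line, and the deposit mentions protein kinase C inhibitors that no library label carries. Nothing in the labels says that replicates were separate cultures, so p-values measure the spread between these libraries, which may be technical. Levels and differences were measured in bulk, where fewer cells of a type and less RNA per cell cannot be told apart.

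Total counts were 47242595 to 78503395 per library, and 3 counts, the floor of detection used here for counting error only, stood for 0.0459 to 0.0686 CPM after scaling by the trimmed mean of M values (TMM). The pluripotency markers were present, with NANOG at 32.5 CPM in the general population and 44.1 CPM in HHH. Of 9 markers of undifferentiated cells 4 passed the adjusted p, NANOG and EPCAM as higher and SOX2 and PODXL as lower in HHH, each under 1.5-fold. The sort antigen EPCAM rose by 0.41 on the log2 scale (SE 0.081, adjusted p = 0.0064), less than the 1.5-fold needed for a call, and CD9 stood at a log2 fold change of 0.29 (adjusted p = 0.20). Small nuclear, nucleolar and Cajal body RNAs took 2.71 to 4.97% of the counts in batch 1 and 0.418 to 0.727% in batch 2.

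The sequences around the start of the lincRNAs that differed between the populations are shown first, because these RNAs are named but seldom seen as sequence. RefSeq windows reach from 250 bases before to 50 bases after the annotated start (GRCh38.p14), are written 5′ to 3′ on the gene's strand, and had an entry for 64 of the 103 genes. Capitals mark the core of the SOX and TCF sites (ACAAAG, or CTTTGT on the other strand) and of the OTX class homeodomain sites (TAATCC, or GGATTA on the other strand). The windows of LINC02570 (chr6:30848110-30848409, minus strand), LINC02700 (chr11:94637793-94638092, plus strand), LINC01356 (chr1:112850594-112850893, minus strand) and LINC00689 (chr7:159008104-159008403, plus strand) read as follows.
LINC02570: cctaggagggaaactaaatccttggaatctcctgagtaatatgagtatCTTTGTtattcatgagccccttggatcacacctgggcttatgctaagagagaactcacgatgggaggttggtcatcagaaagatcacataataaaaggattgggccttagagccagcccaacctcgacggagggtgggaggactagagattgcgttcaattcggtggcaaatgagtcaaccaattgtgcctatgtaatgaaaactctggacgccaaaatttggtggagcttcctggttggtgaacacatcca
LINC02700: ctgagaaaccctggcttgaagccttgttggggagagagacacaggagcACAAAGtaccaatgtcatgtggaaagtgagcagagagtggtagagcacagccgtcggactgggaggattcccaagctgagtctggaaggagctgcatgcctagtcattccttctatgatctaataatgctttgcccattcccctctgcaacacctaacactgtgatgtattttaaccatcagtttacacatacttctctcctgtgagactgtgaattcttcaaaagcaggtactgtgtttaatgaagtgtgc
LINC01356: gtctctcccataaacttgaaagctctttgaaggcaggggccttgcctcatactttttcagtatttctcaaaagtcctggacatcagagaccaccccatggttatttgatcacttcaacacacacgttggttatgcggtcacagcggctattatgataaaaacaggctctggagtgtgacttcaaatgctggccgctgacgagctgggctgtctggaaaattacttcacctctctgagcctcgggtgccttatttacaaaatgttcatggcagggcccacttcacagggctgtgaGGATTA
LINC00689: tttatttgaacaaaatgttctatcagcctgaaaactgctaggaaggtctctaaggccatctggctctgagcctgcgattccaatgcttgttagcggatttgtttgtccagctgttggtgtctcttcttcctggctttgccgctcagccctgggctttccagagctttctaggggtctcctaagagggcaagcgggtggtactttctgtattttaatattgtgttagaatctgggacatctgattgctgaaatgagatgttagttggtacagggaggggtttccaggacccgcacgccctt

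The RefSeq window of LINC00689 lies 1832 bases downstream of the GENCODE start and thus belongs to another annotated start. LINC00698 and LINC00458, which also differed, are named without sequence.

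Among the 64 windows, 16 (25.0%) held the SOX and TCF core, against 16.1% of 35116 RefSeq windows of all genes. Some of the 64 lie far from the GENCODE start, such as those of LINC02615 (135265 bases) and LINC01844 (29371 bases), which both hold this core. The shares therefore describe RefSeq starts, which are not always the GENCODE ones. The OTX class core stood in 8 (12.5%) against 6.36%, part of the POU octamer (TTTGCAT or its reverse complement ATGCAAA) in 2 (3.13%) against 4.46%, and the E-box CACGTG in 4 (6.25%) against 7.26%. Of the 4 windows printed above, 2 held the SOX and TCF core, 1 the OTX class core and 0 the octamer or the E-box. The median GC content was 57.2% in the lincRNA windows and 58.7% in all windows. A match of such short letters describes the window and is no evidence of a bound factor.

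The 103 lincRNAs were spread over 22 chromosomes, with 13 on chromosome 12 and 12 on chromosome 1. Their exons covered a median of 3415 bases (436 to 33198), 11 consisted of a single exon, 51 shared no exonic base with another annotated gene and 20 shared at least 20%. Whether counting used strand is not stated, so it is not known whether reads of such overlapping genes were kept apart. Together they took 0.0638 to 0.0932% of the counts of a library, 0.0638 to 0.0789% in batch 1 and 0.0852 to 0.0932% in batch 2. The median mean level was 2.42 CPM, 14 genes exceeded 10 CPM, and 45 lay between 1 and 2 CPM. LINC00678, LINC02067 and LINC02972 held 44.5% of all counts of the 103 genes. Of the 103, 94 reached 1 CPM in both populations, 7 in the general population only and 2 in HHH only.

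Just inside the level threshold lay LINC00663 (1.003 CPM), LINC00852 (1.013 CPM) and LINC01816 (1.036 CPM). Just outside lay LINC01770 (0.996 CPM), LINC02904 (0.994 CPM) and LINC02482 (0.961 CPM).

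Per length, on the log2 RPKM scale of the deposited values, LINC00678 was the most abundant with a mean of 7.10. It was followed by LINC02067 (5.36), LINC02972 (5.05), LINC01194 (3.61), LINC02570 (3.33), LINC00545 (3.18), LINC00339 (2.93) and LINC01315 (2.29). The lengths behind these values were the authors' own. Of these 8, LINC02570 alone was called as different between the populations.

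HHH was compared with the general population over both batches, with batch as a term, to ask which lincRNAs follow the sort. Calls required an adjusted p under 0.05 in the quasi-likelihood test of edgeR (Benjamini-Hochberg adjustment over 23552 tested genes) together with a change of more than 1.5-fold. Of the 103 lincRNAs 6 were called (5.83%), where 2.98% of all tested genes were. LINC02700 and LINC00458 rose in HHH, and LINC00689, LINC00698, LINC01356 and LINC02570 fell. Calls over all genes were also mostly lower in HHH, 2.34% against 0.637% higher. Among tested long noncoding RNAs outside the 103, 88 of 3278 were called (2.68%), and among those at the same level threshold 3.05%. Protein-coding genes were called in 3.51% of cases, or 3.12% at the level threshold. A gene that reached the threshold through 1 population only had to be higher there, and of the 94 lincRNAs at 1 CPM in both populations 5 were called (5.32%). The main fit did not pair the libraries. With the replicate numbers as a block 5 of the 103 were called, without LINC01356 and LINC02570 and with LINC01896.

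Most lincRNAs moved little, though some without a call exceeded 1.5-fold, such as LINC00273 (log2 fold change 1.13) and LINC02955 (-0.62). The log2 fold change lay under 0.5 in either direction for 93 of the 103, with a median of -0.053 against 0.016 over all tested genes, and 56 of them were negative. The median SE was 0.15. At an unadjusted p under 0.05 stood 27 lincRNAs, and 20.9% of all tested genes. LINC00205 had an adjusted p of 0.044 with a log2 fold change of -0.45, under the 1.5-fold limit.

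**Figure D1:**
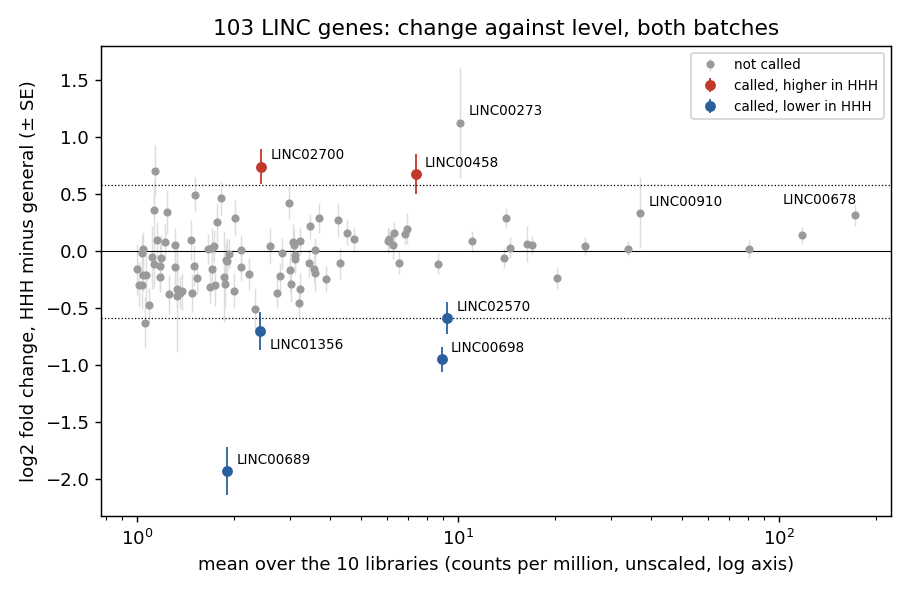
Each point is 1 of the 103 lincRNAs, with its mean level on the x axis (CPM without TMM scaling, log axis) and its log2 fold change of HHH minus general over both batches on the y axis (bars, SE). Dotted lines mark 1.5-fold; the 6 called genes are coloured, and 93 of the 103 lie within 0.5 of zero.

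LINC00689 (ENSG00000231419, chr7:159006522-159030195) showed the largest difference. In TMM-scaled CPM, as in all library values that follow, it stood at 0.689 and 0.553 in the general libraries of batch 1 and at 0.300 and 0.274 in the HHH libraries. In batch 2 it was at 3.90, 3.86 and 5.08 in the general population and at 0.721, 1.002 and 1.095 in HHH. Within each batch the populations did not overlap, and across batches they did, since the level in batch 2 was 5.75 times that in batch 1. LINC00689 fell by 1.93 on the log2 scale (SE 0.21, adjusted p = 6.2e-05), by 1.11 in batch 1 (SE 0.40, adjusted p = 0.31) and by 2.20 in batch 2 (SE 0.19, adjusted p = 1.0e-05). It was also 1 of the 7 genes that reached 1 CPM in the general population only.

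LINC00698 (ENSG00000244342, chr3:62950430-63125062) had 14.5 and 12.5 CPM in the general libraries of batch 1 and 8.03 and 7.78 CPM in HHH. In batch 2 the general libraries held 10.1, 9.68 and 11.9 CPM and the HHH libraries 4.29, 5.32 and 5.48 CPM. Every HHH library lay below every general library, which among the 103 held for LINC00698 in this direction and, in the other, for LINC02700, together 1.94% where 3.02% of all tested genes had populations that did not overlap. LINC00698 fell by 0.95 on the log2 scale (SE 0.11, adjusted p = 8.0e-05). The value was -0.78 in batch 1 (adjusted p = 0.074) and -1.08 in batch 2 (adjusted p = 1.3e-04).

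LINC01356 (ENSG00000215866, chr1:112820170-112850643) was at 4.82 and 3.69 CPM in the general libraries of batch 1 against 1.89 and 1.88 CPM in HHH. In batch 2 it was at 2.57, 2.02 and 2.37 CPM against 2.09, 1.75 and 1.54 CPM, where the ranges overlapped. The log2 fold change was -0.70 over both batches (SE 0.17, adjusted p = 0.025), -1.18 in batch 1 (adjusted p = 0.059) and -0.38 in batch 2 (adjusted p = 0.15). With the replicate numbers as a block the value was -0.53 and the adjusted p 0.068, so that the call was lost. Its exons shared 19.1% of their bases with LINC01357.

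LINC02570 (ENSG00000237923, chr6:30838324-30848204) lies in the major histocompatibility region. The general libraries held 8.04 and 9.89 CPM in batch 1, and HHH 4.13 and 5.19 CPM. Batch 2 had 12.5, 9.87 and 12.8 CPM in the general population and 8.60, 7.76 and 10.9 CPM in HHH, with 1 HHH library above the lowest general library. It fell by 0.59 on the log2 scale (SE 0.14, adjusted p = 0.023), close to the 1.5-fold limit. The replicate block gave -0.58 (adjusted p = 0.043), which was under that limit and ended the call.

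LINC02700 (ENSG00000255666, chr11:94638045-94652884) was the most clearly raised lincRNA. It stood at 1.82 and 1.78 CPM in the general libraries and at 2.19 and 2.29 CPM in the HHH libraries of batch 1. In batch 2 the general libraries held 2.08, 1.49 and 1.72 CPM and the HHH libraries 3.88, 3.44 and 3.36 CPM. LINC02700 rose by 0.74 on the log2 scale (SE 0.15, adjusted p = 0.0087). The log2 fold change was 0.31 in batch 1 (adjusted p = 0.63) and 1.001 in batch 2 (adjusted p = 0.0014), and the difference between the batches had an adjusted p of 0.17.

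LINC00458 (ENSG00000234787, chr13:53950255-54270397), a nuclear transcript linked to pluripotency in earlier work, was the other raised gene. Its general libraries held 4.75 and 8.63 CPM in batch 1 and 6.42, 5.14 and 3.83 CPM in batch 2. The HHH libraries held 10.3 and 9.17 CPM in batch 1 and 10.4, 8.98 and 6.75 CPM in batch 2. The populations were apart within each batch, but the lowest HHH library lay below the highest general one. LINC00458 rose by 0.68 on the log2 scale (SE 0.17, adjusted p = 0.035), with 0.55 in batch 1 (adjusted p = 0.42) and 0.75 in batch 2 (adjusted p = 0.018).

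**Figure D2:**
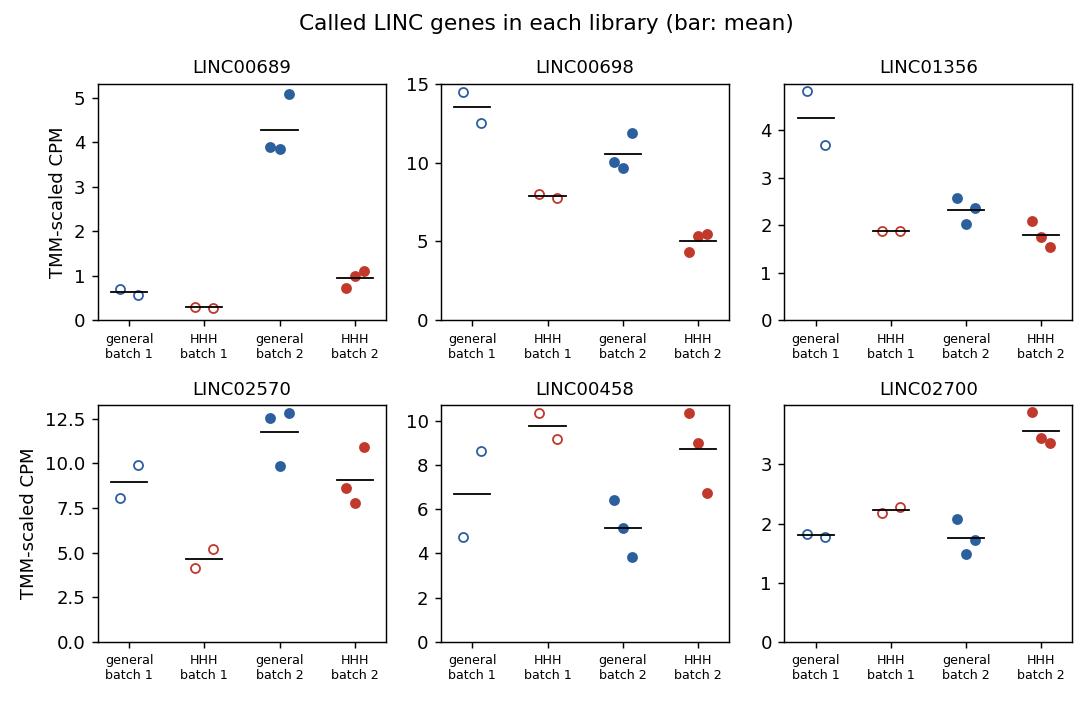
TMM-scaled CPM of the 6 called lincRNAs in every library, 1 panel a gene with an axis from 0, general in blue and HHH in red, batch 1 as open and batch 2 as filled circles, with bars at the mean of each group. For LINC00698 and LINC02700 all HHH libraries lie on 1 side of all general libraries.

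Leaving out each library in turn kept the calls of LINC00689, LINC00698 and LINC02700 in 10 of 10 fits, those of LINC01356 in 6, LINC00458 in 4 and LINC02570 in 3. The adjusted p of LINC00458 passed 0.05 without general batch 1 replicate 1 (0.072) or batch 2 replicate 2 (0.080) or 3 (0.094). It also did so without HHH batch 1 replicate 2 (0.074) or batch 2 replicate 1 (0.10) or 2 (0.085). For LINC01356 this was so without general batch 1 replicate 1 (0.053) or batch 2 replicate 1 (0.059), and without HHH batch 1 replicate 2 (0.080) or batch 2 replicate 3 (0.0501). For LINC02570 it was so without general batch 2 replicate 1 or 3 (0.055 each), and without HHH batch 1 replicate 2 (0.064) or batch 2 replicate 1 (0.056) or 2 (0.069). In the 2 remaining fits without a call, without general batch 1 replicate 2 and without HHH batch 1 replicate 3, LINC02570 stayed past the adjusted p and missed the fold limit.

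LINC00678 (ENSG00000254934, chr11:27617626-27634627), the most abundant of the 103 per length and a stem cell transcript next to BDNF, was nearly level in batch 1, with 141.4 and 139.8 CPM in the general libraries and 144.3 and 141.2 CPM in HHH. In batch 2 it was at 166.4, 145.9 and 149.5 CPM against 214.0, 205.0 and 241.6 CPM, with no overlap. Over both batches the log2 fold change was 0.32 (SE 0.095, adjusted p = 0.066), and 0.40 with the replicate block (adjusted p = 0.046). It was 0.02 in batch 1 (adjusted p = 0.96) and 0.51 in batch 2 (adjusted p = 0.0042), and the difference between batches was 0.49 (SE 0.14, adjusted p = 0.11).

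The remaining lincRNAs among the 8 most abundant showed small differences. LINC02067 had a mean of 111.9 ± 4.72 CPM (SD, n = 5) in the general population and 123.6 ± 7.61 CPM (SD, n = 5) in HHH, or 0.14 on the log2 scale (SE 0.067, adjusted p = 0.24). LINC02972 stood at 78.8 ± 14.6 CPM against 79.2 ± 9.81 CPM (log2 fold change 0.02), and LINC01194 at 23.8 ± 3.72 CPM against 24.8 ± 5.20 CPM (0.05). LINC00339, of whose exonic bases 51.0% are shared with CDC42-AS1, was at 10.7 ± 0.596 CPM against 11.3 ± 1.11 CPM (0.09). LINC01315 (6.16 ± 0.917 against 6.38 ± 0.929 CPM) and LINC00545 (4.15 ± 0.202 against 3.51 ± 0.503 CPM) had log2 fold changes of 0.06 and -0.24. None of these 6 had an adjusted p below 0.24, while LINC02700, at a mean of 2.44 CPM, was called.

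Within batch 1, LINC00273 was called, 1 of 103 (0.971%) where 0.633% of all tested genes were. Within batch 2, 10 were called (9.71%), where 4.81% of all tested genes were. LINC02700, LINC00458, LINC00941 and LINC01484 were higher in HHH (0.972% of all genes were), and LINC00689, LINC00698, LINC01896, LINC02600, LINC01836 and LINC02955 were lower (3.83% of all genes were). Of these 10, LINC00689, LINC01836 and LINC02955 had reached the level threshold through the general population only and LINC01484 through HHH only, each the population where it was higher. Among the 94 lincRNAs at 1 CPM in both populations 6 were called in batch 2 (6.38%). No lincRNA was called in each batch separately in the main edgeR fit, and batch 1 had fewer libraries. By the alternative test DESeq2, LINC00698 was called in batch 1 (log2 fold change -0.78, adjusted p = 0.0028) and in batch 2 (-1.07, adjusted p = 5.5e-12). The log2 fold changes of the 2 batches had the same sign for 56 of the 103. At an unadjusted p under 0.05 stood 11 lincRNAs in batch 1 and 30 in batch 2, against 12.3% and 29.9% of all tested genes.

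In batch 2, LINC01896 was at 3.57, 2.81 and 4.25 CPM in the general libraries and 2.01, 1.78 and 2.46 CPM in HHH, and its log2 fold change was -0.78 (adjusted p = 0.014). In batch 1 it was level, with 1.21 and 1.44 CPM against 1.20 and 1.44 CPM. LINC02600, LINC01836 and LINC02955 had log2 fold changes of -0.62, -0.61 and -0.81 in batch 2, and LINC00941 and LINC01484 of 0.60 and 0.68.

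**Figure D3:**
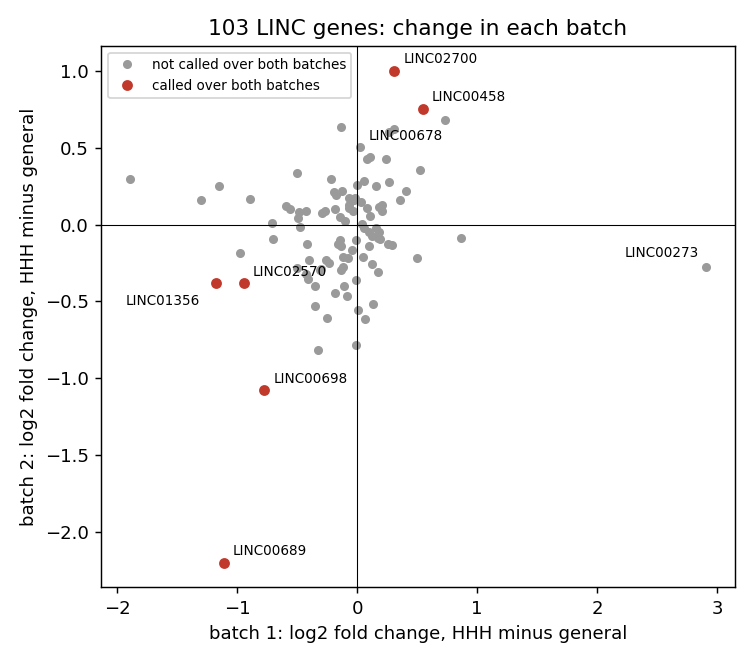
Log2 fold change of HHH minus general in batch 1 (x axis) and batch 2 (y axis) for the 103 lincRNAs, with the 6 genes called over both batches in red. These 6 have the same sign in both batches, and LINC00273 stands far to the right at 2.90 in batch 1 and -0.28 in batch 2.

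Without an overlap of the populations stood 41 lincRNAs in batch 1 (39.8%, where 43.5% of all tested genes did) and 36 in batch 2 (35.0% against 36.2%). In both batches and in the same direction this held for 13 (12.6% against 9.35%), 6 higher and 7 lower in HHH. Besides the called LINC00698, LINC00458, LINC02700 and LINC00689 these were LINC02987, LINC02315, LINC00941, LINC01503, LINC00205, LINC00449, LINC00863, LINC01836 and LINC00882. Among the 94 lincRNAs at 1 CPM in both populations the count was 10 (10.6%), since LINC00689, LINC01836 and LINC00882 had reached the threshold through the general population only.

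A difference between the batches in the response to the sort was found for LINC00273 (1 of 103, where 0.777% of all tested genes passed an adjusted p of 0.05 for the interaction). LINC00273 (ENSG00000256642, chr16:34158585-34160036) is a single-exon gene. Its general libraries held 5.28 and 5.85 CPM in batch 1, and its HHH libraries 47.8 and 35.7 CPM. In batch 2 the general libraries held 3.70, 3.23 and 2.42 CPM and the HHH libraries 1.72, 2.71 and 3.32 CPM. It rose by 2.90 on the log2 scale in batch 1 (SE 0.17, adjusted p = 7.6e-05), while the value in batch 2 was -0.28 (SE 0.22, adjusted p = 0.42). The difference, batch 2 minus batch 1, was -3.18 (SE 0.32, adjusted p = 3.1e-04). Over both batches its value of 1.13 (SE 0.48) was not called (adjusted p = 0.20), but it was called when no filter on low counts was used. With the replicate block, where batch 1 is represented by 1 pair of libraries (replicate 2 of each population), 3 lincRNAs passed, LINC00273, LINC01844 (1.32, adjusted p = 0.032) and LINC00910 (-1.63, adjusted p = 0.0010). The block thereby leaves out HHH batch 1 replicate 3, where LINC00910 was lower than in the general libraries.

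Several lincRNAs differed between the batches. Batches did not overlap for 38 lincRNAs (36.9%, where 28.5% of all tested genes did not overlap), with 26 higher in batch 2 (14.0% of all genes) and 12 higher in batch 1 (14.5% of all genes). The level threshold used a mean over 10 libraries of which 6 belong to batch 2, so a gene could reach it through that batch alone. Among the 82 lincRNAs with a mean of at least 1 TMM-scaled CPM in each batch the batches did not overlap for 25 (30.5%), 15 higher in batch 2 and 10 higher in batch 1. LINC00847 (ENSG00000245060) had 4 counts in all of batch 1, at most 0.0459 CPM in a library, and 4.84 to 6.37 CPM in every library of batch 2. The whole table held 7 such genes, with at most 5 counts in batch 1 and at least 1 CPM in each library of batch 2, the others being C9orf64, CAT, ENSG00000257742, IRAK4, PUS7L and TRIM61. LINC01515 and LINC01844 were 10.99 and 6.49 times as high in batch 2 as in batch 1.

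LINC00910 (ENSG00000188825, chr17:43338741-43389226) went the other way. It stood at 62.9 and 68.1 CPM in the general libraries of batch 1, at 198.5 and 40.7 CPM in the HHH libraries, and at 6.25 to 8.55 CPM in batch 2. The HHH libraries of batch 1 thus lay on either side of the general ones. The annotation places a U2 small nuclear RNA copy, RNU2-4P, inside LINC00910. The small RNA share named above was 4.97% in the HHH library with 198.5 CPM and 2.71% in the one with 40.7 CPM. With small RNA genes left out of library sizes and tests, the log2 fold change of LINC00910 in batch 1 was 0.86, as it was with them (adjusted p = 0.53 with them). The counts of LINC00910 itself were the same in both fits, so the unchanged value cannot show where its reads came from. Whether fragments of the U2 copy were counted in LINC00910 was not tested.

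**Figure D4:**
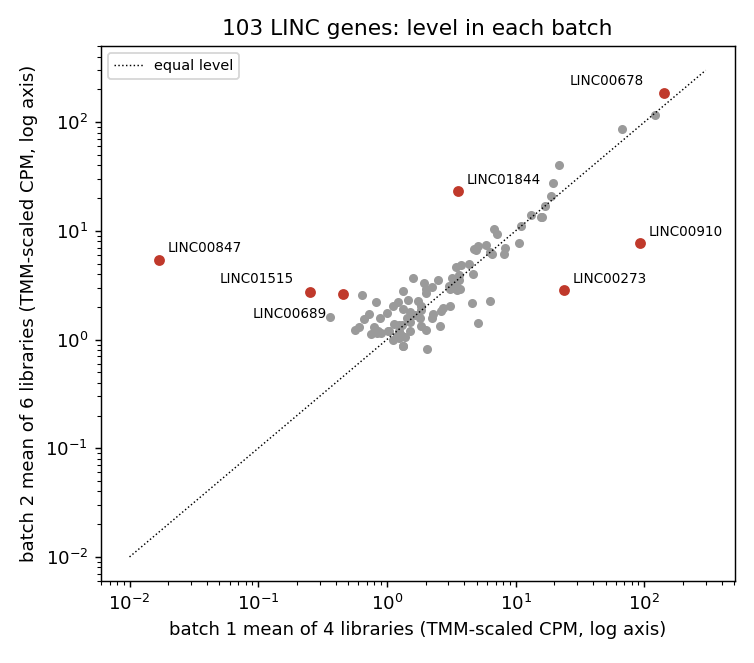
Mean TMM-scaled CPM in the 4 libraries of batch 1 (x axis) and the 6 libraries of batch 2 (y axis) for the 103 lincRNAs, both axes logarithmic, with a dotted line of equal level. LINC00847 lies far to the left at 4 counts in batch 1, and LINC00910 and LINC00273 lie below the line.

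The nearest protein-coding gene of each lincRNA was taken from GENCODE 44, to see whether neighbours moved together. The median distance was 11117 bases, 18 lincRNA bodies overlapped a coding gene, 49 lay within 10 kb (overlaps included) and 15 were over 100 kb away, up to 1411315 bases. There were 100 distinct neighbours, of which 86 were tested and 1 was called (1.16%, where 3.51% of protein-coding genes and 2.98% of all genes were). Their median log2 fold change was 0.01. Among 89 tested pairs 44 had the same sign.

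The called neighbour was VIPR2, a receptor for the peptides VIP and PACAP, whose body overlaps that of LINC00689 on the opposite strand. VIPR2 stood at 1.81 and 1.31 CPM in the general and 0.793 and 1.01 CPM in the HHH libraries of batch 1. In batch 2 it was at 9.09, 9.54 and 11.3 CPM in the general libraries and at 2.76, 2.75 and 3.04 CPM in HHH. It fell by 1.504 on the log2 scale (SE 0.18, adjusted p = 1.3e-04), with -0.80 in batch 1 and -1.82 in batch 2. LINC00689 and VIPR2 thus had the same order of groups in these libraries, but 22.1% of the exonic bases of LINC00689 are shared with VIPR2. As the use of strand in counting is not stated, their counts may not be separate measurements.

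The other called lincRNAs had neighbours without a call. LINC02570 lies 28217 bases from DDR1, a receptor tyrosine kinase for collagen, with their starts facing away from each other. DDR1 fell by 0.37 on the log2 scale (SE 0.082, adjusted p = 0.016), from 217.3 ± 12.4 CPM to 169.1 ± 24.2 CPM (SD, n = 5 each), which is under 1.5-fold. LINC01356 lies 61204 bases from SLC16A1, the lactate and pyruvate transporter MCT1, whose log2 fold change was -0.24 (adjusted p = 0.13). LINC00698 lies 75014 bases from CADPS, which acts in the release of dense-core vesicles, at 0.03 (adjusted p = 0.89). The neighbour of LINC02700 at 16624 bases was PIWIL4, a protein of the piRNA pathway, at -0.02 (adjusted p = 0.97). By distance between start sites it was AMOTL1, an angiomotin family protein of cell junctions, which rose by 0.41 (SE 0.11, adjusted p = 0.035), under 1.5-fold. LINC00458 lies 898198 bases from its nearest coding gene OLFM4, which had under 0.035 CPM in every library and was not tested.

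**Figure D5:**
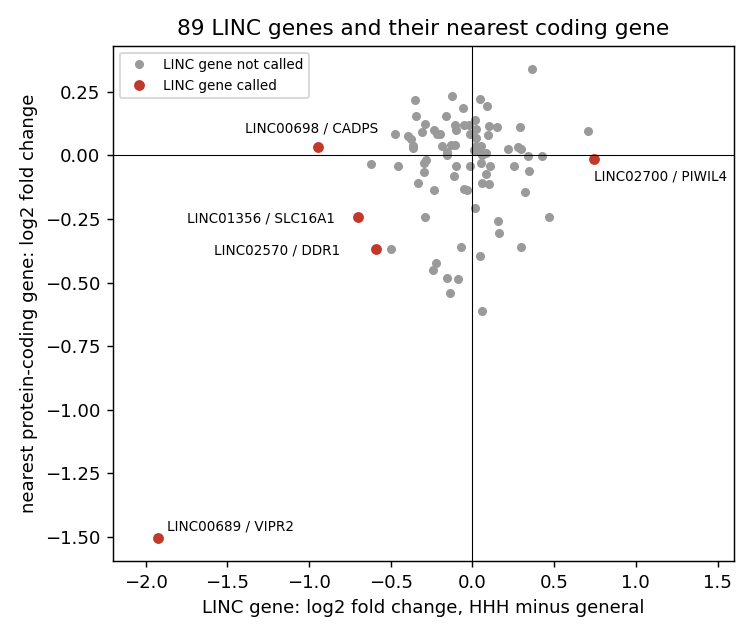
Log2 fold change of HHH minus general over both batches for a lincRNA (x axis) and its nearest protein-coding gene (y axis) in the 89 pairs where both were tested, with called lincRNAs in red. LINC00689 and VIPR2 lie alone at the lower left, and the remaining pairs lie around zero on the y axis.

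Neighbours other than VIPR2 and DDR1 that passed the adjusted p without the fold were CTNND2 (-0.40, adjusted p = 0.046), MEDAG (-0.45, adjusted p = 0.0498) and TUBB2A (0.34, adjusted p = 0.010). Their lincRNAs LINC01194, LINC00545 and LINC02525 were not called. In 5 pairs the starts lay within 2 kb and pointed in opposite directions. They were LINC01521 with PATZ1, LINC00205 with POFUT2, LINC01896 with SALL3, LINC01560 with ZNF41 and LINC02894 with ESRP1. SALL3, a zinc finger transcription factor 744 bases from LINC01896, had a log2 fold change of -0.95 in batch 2 (adjusted p = 2.5e-05) and of 0.55 in batch 1 (adjusted p = 0.30). Over both batches together neither was called in the main fit, LINC01896 at -0.50 and SALL3 at -0.37 (adjusted p = 0.36). With the replicate block, where batch 1 is represented by 1 pair of libraries, both passed. LINC01896 then stood at -0.66 (adjusted p = 0.021) and SALL3 at -0.68 (adjusted p = 0.034), which made 2 called neighbours.

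Long noncoding RNAs with a link to pluripotency were read from the same libraries, among them LINC00458 and LINC00678, already described above. Of 7 listed and tested, LINC00458 alone was called, where 2.98% of all tested genes were, and 3 passed the adjusted p. The median log2 fold change was 0.38 against 0.016 over all genes. That median is the value of LINC01108, at 0.652 CPM in the general population and 0.882 CPM in HHH. So short a list was not tested as a set. LNCPRESS1, a p53-regulated transcript of stem cells, rose by 0.44 (adjusted p = 0.0071) and TUNAR fell by 0.27 (adjusted p = 0.038), both under 1.5-fold. ESRG (-0.12), LINC-ROR (0.68) and LINC01108 (0.38) had adjusted p-values of 0.35, 0.14 and 0.35, and LINC-ROR stood at 0.364 CPM in the general population and 0.592 CPM in HHH. Of 15 tested widely expressed noncoding RNAs, CYTOR was called as higher (log2 fold change 1.00, adjusted p = 0.0046) and H19, an imprinted transcript, as lower (-0.79, adjusted p = 0.024), with a median of -0.04. MALAT1, of nuclear speckles, was at -0.39 (adjusted p = 0.10).

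Markers of other cell types were read beside these values. Of 14 neural markers 11 were tested and 4 fell (2.34% of all tested genes did), LHX5 (from 6.81 to 0.145 CPM), HESX1, DLK1 and SOX1. The other tested markers were not called, among them SIX6 (log2 fold change 1.05, adjusted p = 0.066), DCX (0.20), PAX6 (-0.15) and TUBB3 (-0.10), and the median of the list was -0.38 (0.016 over all tested genes). The summed level of the 14 markers was 409 to 467 CPM in the general libraries and 277 to 484 CPM in HHH, and SIX3 and NEUROG2 were at or below 0.52 CPM in either mean. Mesendoderm and endoderm markers summed to at most 3.68 CPM, and of 9 only MIXL1 (log2 fold change 0.33) and CXCR4 (-0.10) passed the filter on low counts, without a call. Of those not tested, FOXA2 had a mean of 0.220 CPM in the general population and 0.657 CPM in HHH, and TBXT of 0.350 and 0.102 CPM. The FOXA2 counts came mostly from batch 1, with 0.107 and 0.905 CPM in the general and 1.67 and 1.37 CPM in the HHH libraries. No library of batch 2 exceeded 0.206 CPM of FOXA2. The fibroblast markers DCN, LUM and COL3A1 lay at or under 0.0485 CPM in the mean. COL1A1 fell by 0.94, from 24.2 to 12.8 CPM, and THY1, also present on stem cells, rose by 0.61, from 141.2 to 216.4 CPM. COL1A2 (105.0 CPM in the general population and 86.4 CPM in HHH, log2 fold change -0.28) and PDGFRA (0.12) were not called. The 7 fibroblast markers summed to 262 to 282 CPM in the general libraries and 292 to 345 CPM in HHH. Whether the neural markers have a part in the fall of LINC00689, LINC00698, LINC01356 or LINC02570 was not tested.

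Below the level threshold 171 further LINC genes were tested and 7 called, 6 of them lower in HHH. Of all tested genes 2.98% were called, 2.34% as lower and 0.637% as higher. LINC01833 had the largest value, with 1.79, 0.586, 0.729, 1.67 and 1.70 CPM in the general libraries and 0.0353 to 0.137 CPM in HHH. It fell by 4.05 on the log2 scale (SE 0.43, adjusted p = 5.8e-05). Its mean over all libraries, 0.702 CPM, kept it out of the 103. The others were LINC02997, LINC01416, LINC02898, LINC02487 and LINC00571, which fell, and LINC00824, which rose.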

How the data were processed

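RNA of 10 libraries was sequenced from TruSeq RNA preparations. The counts per Ensembl gene were deposited by the authors as whole numbers without normalization. The log2 values, used here as a score, were deposited by the authors as TMM-scaled RPKM, with gene lengths not given in the sources used here. In 27641 genes their batch means were equal to within 9.24e-14, so batch had been removed. The submitters' notes name CASAVA 1.8.2, R 3.2.2, limma 3.26.9 and GRCh37. The aligner and counter are not given in the sources used here.

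Identifiers were matched by Ensembl ID to GENCODE 44 (GRCh38), which gave symbols, biotypes, coordinates and nearest coding genes. This found 88.5% of all identifiers and 94.0% of those tested. Genes were kept by filterByExpr (minimum count 10) and tested two-sided with edgeR 4.0.16 in R 4.3.3 (TMM, quasi-likelihood F test, batch and population as terms, Benjamini-Hochberg adjustment). A call needed an adjusted p under 0.05 and a fold over 1.5. SE was the log2 fold change over the square root of F. The fitting was tested on simulated data.

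Replicate numbers recur in both populations for 4 pairs of libraries. Deviations from the group means correlated at 0.113 for the pair of batch 1 and 0.239, 0.143 and 0.113 for those of batch 2, all over 0.1. The numbers may thus pair the libraries. The main fit did not pair them, and the replicate block was an alternative that did. With 2 libraries per group the deviations mirror each other, so the value of batch 1 cannot favour the numbered pair over the other (general replicate 1 with HHH replicate 3, also 0.113). General batch 1 replicate 1 and HHH batch 1 replicate 3 share no number and carry no weight there.

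The members and lists were chosen with earlier results of these data known. Named genes were the called lincRNAs, the 8 highest by deposited log2 RPKM, those on the pluripotency list, their nearest coding genes, lincRNAs with an interaction and those 3 on each side of the threshold. Others were named after their values were seen. Alternatives were RLE scaling, no filter, DESeq2 1.42.0, limma 3.58.1 on the deposited log2 values (centred on the median), the replicate block, no batch term, each library left out, 2 CPM as the threshold, members sharing under 20% of exonic bases and the distance between start sites. Leaving out small RNAs was added after seeing the data.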

Additional observations from a re-analysis of the deposited data

Results flagged for a closer look

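In 34 groups of 5 libraries, those of the named lincRNAs in each population, 1 library stood apart by Dixon's 95% limit of 0.71, and chance alone flags about 1 in 20 groups. It was HHH batch 2 replicate 3 for LINC00339, with 13.2 CPM where the other HHH libraries held 10.4 to 11.1 CPM. LINC00339 was not called with or without it.

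LINC00273 was picked out because its response to the sort differed between the batches by -3.18 on the log2 scale, batch 2 minus batch 1 (edgeR, adjusted p = 3.1e-04). Both HHH libraries of batch 1 were higher than both general ones, and the populations overlapped in batch 2. The difference passed in each of the 10 fits that left out 1 library, but 4 of these leave a population of batch 1 with a single library, which is then assumed to vary like the other groups. The gene has 1 exon and no other annotated gene in its body, and the share of small nuclear and nucleolar RNAs in the counts was 4.97% and 2.71% in the HHH libraries concerned. With these genes left out of library sizes and tests, the log2 fold change in batch 1 was 2.90 (edgeR, adjusted p = 7.3e-06), as it was with them. The counts of LINC00273 itself were the same in both fits, so the unchanged value cannot show whether small RNAs had a part in it. That was not tested.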

How the results depend on the processing

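The number of called lincRNAs over both batches was 6 with RLE scaling, 8 without a filter, 7 by DESeq2, 5 with the replicate block, 5 at 2 CPM or more, 5 among genes sharing under 20% of exonic bases, 6 without small RNAs and 4 to 6 with a library left out. With RLE, and without small RNAs, the same 6 genes were called. Without a filter LINC02570 was lost and LINC00273, LINC01484 and LINC02955 entered, and DESeq2 added LINC01484. It was 3 by limma on the deposited log2 values, where LINC00458, LINC01356 and LINC02570 were lost, and 0 without a batch term, where 16 had an unadjusted p under 0.05 and the spread includes the difference between batches. In batch 1 the main count of 1 became 5 by DESeq2 (LINC00273, LINC00698, LINC01356, LINC02570 and LINC00461), 4 without small RNAs and 1 to 6 with a library left out (6 without general batch 1 replicate 2, 3 without HHH batch 1 replicate 3, 2 without general batch 1 replicate 1). In batch 2 the main count of 10 was 9 by DESeq2, 12 with the replicate block and 3 to 11 with a library left out. It was 3 without general batch 2 replicate 3, and 6 without HHH batch 2 replicate 2 or 3 or general batch 2 replicate 1. Of lincRNAs with a batch difference, main count 1, 3 passed by DESeq2 (with LINC01844 and LINC00678), 3 with the replicate block, and 1 to 3 with a library left out (3 without HHH batch 1 replicate 3, with LINC01844 and LINC00910). Called nearest coding genes, main count 1, were 2 with the replicate block, 0 without a batch term (5 at an unadjusted p under 0.05), 2 by start sites (VIPR2 and SPTSSB, 0.65) and 1 to 2 with a library left out (2 without general batch 1 replicate 2, with CTNNA3). The other long noncoding RNAs called, 88 in the main count, were 158 without a filter, 12 without a batch term and 61 to 116 with a library left out. The cause of these moves was not tested. Among lincRNAs and their neighbours the replicate block changed no call beyond those of LINC01356, LINC02570, LINC01896, SALL3, LINC01844 and LINC00910 and, in batch 2, LINC02525 and LINC01503.

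Among the named lincRNAs no called gene changed sign. Signs turned for values near zero, LINC02972 to -0.005 and LINC00663 to 0.037 with the replicate block. With a library left out LINC02972 ran from -0.0124 to 0.0809, LINC01315 from -0.0568 to 0.1378 and LINC00663 from -0.2994 to 0.0082. Of the 103 lincRNAs 45 had a mean under 2 CPM.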
